A study of Homo sapiens with 27 samples.

Results

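The set described here holds the genes whose transcripts gained poly(A) reads downstream of the annotated gene end upon CPSF1 knockdown in each of 3 prostate cancer cell lines. Poly(A)-ClickSeq (PAC-seq), which sequences the last bases of a transcript before its poly(A) tail, was run on 27 libraries of LNCaP, LNCaP95 and 22Rv1 cells. LNCaP is a hormone-sensitive line, and LNCaP95 and 22Rv1 are hormone-insensitive lines. Every library came from cells infected with lentivirus, selected with puromycin and stably expressing an shRNA, either a control (CTRL sh) or 1 of 2 hairpins that target CPSF1 and are labelled CPSF1 sh1 and CPSF1 sh2. Each line had 3 libraries of each kind, described as biological replicates, so that 3 control libraries stand against 6 knockdown libraries per line. LNCaP and 22Rv1 cells grew in RPMI with serum, and LNCaP95 cells in the same medium without phenol red, so that line and medium cannot be told apart. Each line is a single cancer cell line and stands for no other prostate cell.

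The genes were chosen by their measured reads. For each gene the downstream share was defined as the reads in the 10 kb beyond the gene end, as a percentage of those reads plus the reads of the 3′ UTR (0.5 was added to the 10 kb reads and 1 to the sum). A gene was eligible if its 10 kb region was present at full length, so that no annotated exon on the same strand had been removed from it, and if the pooled knockdown libraries of each line held at least 20 reads there. Of 20266 genes with a 10 kb region, 15147 had the full length and a 3′ UTR region, and 6204 were eligible. A gene became a member if its pooled knockdown share was at least 2 times its pooled control share in every line, and 1341 genes met this rule. The rise of the share, of the 10 kb reads and their relation to the 3′ UTR reads were therefore used to choose the genes, and those values are given as a description without a test.

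As background, most protein-coding transcripts end by cleavage near a poly(A) signal in the 3′ UTR, after which a poly(A) tail is added. The signal is read by the cleavage and polyadenylation specificity factor, of which CPSF1 is the largest subunit, together with cleavage stimulation factor and other complexes. When a site is passed without cleavage, RNA polymerase transcribes past the annotated end, and a transcript may be cleaved at a site further downstream. In prostate cancer cells the same machinery sets the ends of transcripts from androgen-responsive genes.

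The annotated gene ends were read from the genome. Of the 1338 members whose region could be placed on the genome, 64.1% had the hexamer AATAAA within the last 50 bases of the gene, on the strand of the gene, compared with 55.6% of the 4860 other eligible genes and 59.1% of 15123 full-length regions. The hexamer ATTAAA was found in 18.9% of the members, in 17.4% of the other eligible genes and in 17.2% of full-length regions, and some ends held both. Neither was present in 21.4%, 30.2% and 27.5%. The 8 ends printed here belong to members whose reads are given further on, and were chosen to cover translation, a chaperone, glycolysis, RNA processing and prostate genes. Each is 30 bases of the 3′ UTR in the last exon, 5′ to 3′ on the strand of the gene, in build GRCh37, with AATAAA in capitals. A match of these letters is a description and was not tested as a site.
EEF1A1: cttgctcactacAATAAAtgaattttaagc
RPL37: atgcatttctttAATAAAgatattgtacaa
HSP90B1: catataaatgttAATAAAgcacactgcttt
LDHB: agctcttgaacaAATAAAattaactattgt
CSTF2T: tttcatgcagaaAATAAAgatacaattaag
DHX9: aatacaatagaaAATAAAgtattacaccga
KLK2: actggggcagcaAATAAAactgaatcttgt
UGT2B15: attggatctgaaAATAAAgtgtcatccaag
The EEF1A1 stretch lies at chr6:74225478-74225507 on the minus strand and the RPL37 stretch at chr5:40825369-40825398 on the minus strand. That of HSP90B1 lies at chr12:104347385-104347414 (plus), that of LDHB at chr12:21788282-21788311 (minus) and that of CSTF2T at chr10:53455251-53455280 (minus). The DHX9 stretch is at chr1:182856854-182856883 (plus), that of KLK2 at chr19:51383782-51383811 (plus) and that of UGT2B15 at chr4:69512361-69512390 (minus). In all 8 the stretch ended 3 to 13 bases before the annotated gene end, and the counted 10 kb region started 300 bases beyond that end.

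Depth, as reads over 3′ UTRs, introns, coding sequences (CDS) and 10 kb regions together, was 3856706 to 11239076 per library for LNCaP, 5431900 to 9100287 for LNCaP95 and 3452413 to 12425417 for 22Rv1. The shallowest was the 22Rv1 control replicate 1. The targeted gene CPSF1 had 65.6 to 78.7 RPM (reads per 1000000 counted reads) in the 3′ UTR in LNCaP controls and 29.4 to 46.2 in the knockdown libraries, with 41.2 to 61.7 and 19.3 to 32.8 for LNCaP95 and 76.9 to 90.4 and 44.1 to 57.4 for 22Rv1, so that controls and knockdowns did not overlap in any line. The 10 luminal prostate markers examined were all detected in every line, although KLK3 had only 15.6 to 26.4 and TMPRSS2 only 2.32 to 9.55 RPM in 22Rv1 controls. In these bulk libraries a change in the number of cells that express a gene and a change of its RNA per cell cannot be told apart.

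Summed over the 1341 members, the downstream share rose in all lines and more with CPSF1 sh2 than with CPSF1 sh1. In LNCaP the 3 control libraries had 0.690, 0.613 and 0.625%, the CPSF1 sh1 libraries 2.61, 2.38 and 2.43% and the CPSF1 sh2 libraries 3.50, 3.74 and 3.59%. In LNCaP95 the values were 0.665, 0.733 and 0.792% with CTRL sh, 4.18, 6.91 and 4.34% with CPSF1 sh1 and 8.67, 6.39 and 6.36% with CPSF1 sh2. In 22Rv1 they were 1.20, 0.861 and 0.866%, then 3.57, 3.23 and 3.33%, then 4.40, 4.53 and 4.60%. No knockdown library came near a control library of its line, and the 2 shRNAs were apart in LNCaP and 22Rv1 but overlapped in LNCaP95, where CPSF1 sh1 replicate 2 was above 2 of the CPSF1 sh2 libraries. The control library with the highest member share, 22Rv1 replicate 1, was also the one with the fewest reads. In the other 4863 eligible genes the summed share started far higher, at 18.3 to 21.3% in LNCaP controls, 11.4 to 12.9% in LNCaP95 and 16.5 to 20.2% in 22Rv1, and reached 19.1 to 24.3%, 15.8 to 21.9% and 19.8 to 21.6% in the knockdowns.

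**Figure D1:**
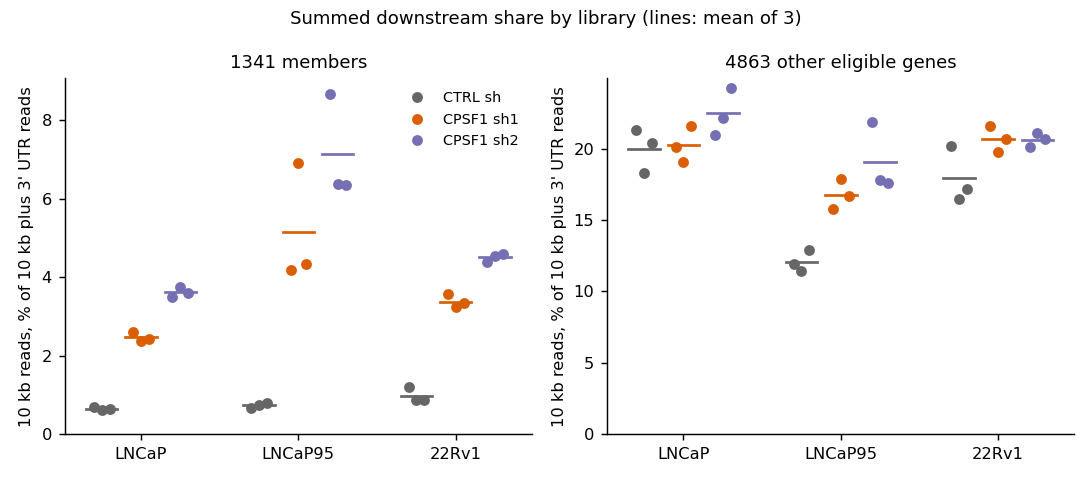
Summed downstream share (y axis, 10 kb reads as a percentage of 10 kb plus 3′ UTR reads) in each of 27 libraries by line (x axis) and shRNA (colour), with lines at the mean of 3 libraries. The 1341 members (left) lay between 0.613 and 1.20% in controls and between 2.38 and 8.67% in knockdowns, and the 4863 other eligible genes (right) started between 11.4 and 21.3%.

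Taken gene by gene, the members were transcripts that seldom ended downstream in control cells. The median pooled share of a member rose from 1.46 to 6.49% in LNCaP, from 1.29 to 9.94% in LNCaP95 and from 1.91 to 8.14% in 22Rv1, while the medians over all eligible genes were 7.47 and 13.8%, 6.50 and 17.5%, and 9.11 and 17.7%. An eligible gene with a control share over 50% cannot meet the rule, and 1378 of the 6204 (22.2%) were in that position in at least 1 line. The ratio of knockdown to control share was at least 4 in all lines for 301 members and at least 8 for 84. It was largest in LNCaP95 for 851 members (63.5%), in LNCaP for 226 and in 22Rv1 for 264. Many of these ratios rest on few control reads. Only 436 members (32.5%) had at least 10 pooled control reads downstream in every line, and 522 (38.9%) had 3 or fewer in at least 1 line, where the added 0.5 weighs on the ratio. The 6 knockdown shares all exceeded the 3 control shares for 788 members (58.8%) in LNCaP, 1144 (85.3%) in LNCaP95 and 813 (60.6%) in 22Rv1, beside 23.1, 48.3 and 27.6% of all eligible genes, and for 510 members (38.0%, all eligible genes 10.5%) in all 3 lines.

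The share can rise through more downstream reads, fewer 3′ UTR reads or both, and in nearly all of these genes the larger part of the rise lay in the downstream reads. Downstream reads were higher and 3′ UTR reads lower in 479 members in LNCaP (35.7%), 700 in LNCaP95 (52.2%) and 910 in 22Rv1 (67.9%). Over all eligible genes these figures were 28.9, 41.6 and 53.0%. On the RPM scale, the members' 10 kb reads had a median log2 change of 2.17 for LNCaP, 2.91 for LNCaP95 and 1.96 for 22Rv1 (all eligible genes 0.95, 1.60 and 0.94). The median log2 change of their 3′ UTR reads was 0.12, -0.03 and -0.10, beside 0.16, 0.05 and -0.07 for all eligible genes. The 10 kb change made up the larger part of the log2 ratio for 1330, 1320 and 1332 of the 1341 members. It did so for 4715, 5037 and 4919 of the 6204 eligible genes. Intron reads of the members changed by a median log2 of -0.27, -0.16 and 0.24 and CDS reads by -0.15, -0.06 and -0.07. For introns all eligible genes had medians of -0.27, -0.09 and 0.25, and for CDS -0.32, -0.17 and -0.15. The members' medians moved most in the 10 kb region. Reads of that region entered the rule while intron and CDS reads did not, so this follows from the choice. Nothing is read from the contrast between regions.

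The 3′ UTR of individual members moved both ways. These reads are part of the share, so the rule favoured a fall, and the figures are a description. Reads there were lower in all lines for 286 members (21.3%, all eligible genes 17.2%), higher in all lines for 222 (16.6%, all eligible 20.6%), and differed in direction between lines for 833 (62.1%, all eligible 62.3%). They stayed within 1.25-fold of control in every line for 341 members (25.4%, all eligible 20.3%). Downstream reads rose in all lines in 1339 members (99.9%, all eligible 75.6%) and at least doubled in all lines in 1189 (88.7%, all eligible 29.3%). The exceptions, chosen after their values were seen, were DGKD, a diacylglycerol kinase, and PPP1R3B, a regulatory subunit of protein phosphatase 1. Their 10 kb reads had log2 changes of -0.23 and -0.50 in LNCaP95, where their 3′ UTR reads had log2 changes of -1.55 and -2.78. Members whose 3′ UTR reads at least halved in every line were PDK1, a kinase that restrains pyruvate dehydrogenase (log2 changes of -1.35 for LNCaP, -1.39 for LNCaP95 and -1.63 for 22Rv1), and CAMK2D, a calcium/calmodulin-dependent kinase (-1.10, -1.61 and -1.19). At the other end the 3′ UTR reads more than doubled in at least 2 lines for FN1, LIF, TFRC, FAT1, HIST1H2AC and IGFBP3, alongside the gain downstream. IGFBP3, which binds insulin-like growth factors, had 3′ UTR log2 changes of 3.02, 2.69 and 0.28 in the 3 lines.

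**Figure D2:**
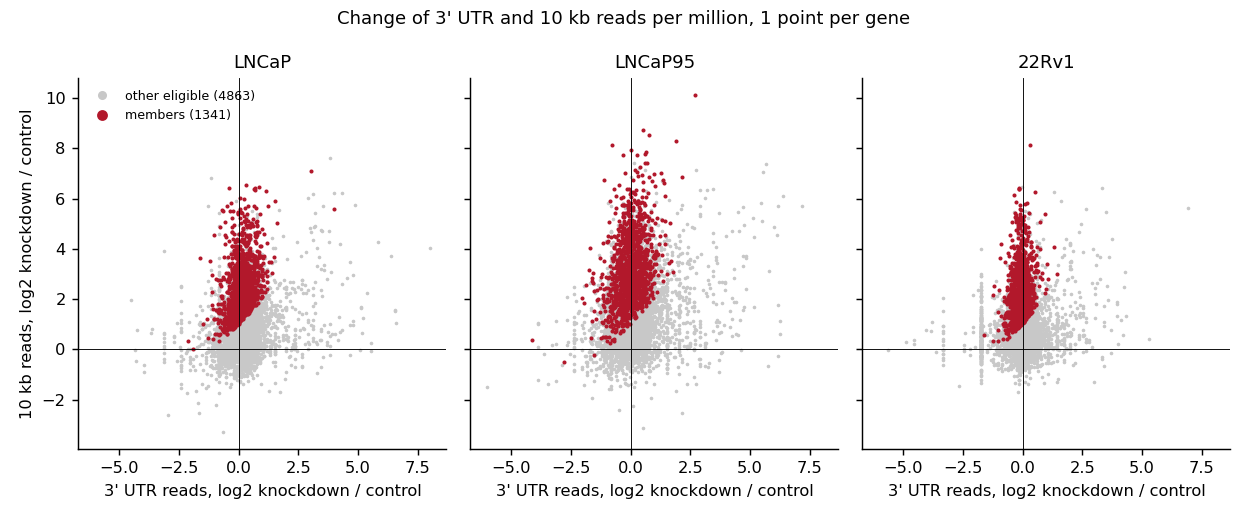
Log2 change of 3′ UTR reads (x axis) against log2 change of 10 kb reads (y axis), knockdown over control on the RPM scale, 1 point per gene, for 1341 members (red) and 4863 other eligible genes (grey) in each line. Members spread around 0 on the x axis and lie above 0 on the y axis, apart from 2 genes in LNCaP95, as the rule of choice demands a share at least 2 times higher.

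Each table was also fitted by itself with edgeR, 3 control against 6 knockdown libraries per line. In this fit a 10 kb region is scaled to the other 10 kb regions, so a rise shared by most regions is removed. Of the 1341 members, 657 were called higher in the 10 kb table of LNCaP (49.0%, background 9.52% of all tested regions), 910 in LNCaP95 (67.9%, background 17.6%) and 538 in 22Rv1 (40.1%, background 7.22%). With library sizes taken over all 4 tables (summed library sizes) these counts were 921, 1228 and 959. Without 22Rv1 control replicate 3 the 22Rv1 count was 354. These excesses follow from the rule, and nothing further is read from them. One member was called lower in the 10 kb table of LNCaP, UGT2B15, and 1 in LNCaP95, PPP1R3B, and neither was with the summed library sizes. In the 3′ UTR table, 169 of 1336 tested members were called lower in LNCaP (12.6%, background 10.1%), 307 of 1337 in LNCaP95 (23.0%, background 15.3%) and 21 of 1335 in 22Rv1 (1.57%, background 0.791%). Calls of higher 3′ UTR reads numbered 113 (8.46%, background 8.23%), 162 (12.1%, background 15.2%) and 3 (0.225%, background 0.678%). These reads are the other term of the share, so the rule favoured a fall and worked against a rise. The 3′ UTR counts are thus a description, and nothing is read from their distance to the background. With the summed library sizes the LNCaP95 split was 108 higher and 370 lower. These 3′ UTR counts moved with single libraries, controls and knockdowns alike. In LNCaP, 169 were higher without CPSF1 sh2 replicate 2, and in 22Rv1 5 to 39 were lower without single knockdown libraries (5 without CPSF1 sh2 replicate 3, 39 without CPSF1 sh1 replicate 1). Without control replicate 1 they were 103 lower and 60 higher in LNCaP, 94 higher in LNCaP95 and 47 lower and 7 higher in 22Rv1, and without control replicate 3 they were 108 lower and 63 higher in LNCaP and 2 lower and 1 higher in 22Rv1. The 3 members called higher in the 22Rv1 3′ UTR table included MAP1B and ST3GAL1.

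The choice was repeated with replicate numbers left out to see how the members behaved in libraries that had not chosen them. Without replicate 1 of every group the rule chose 1237 genes, and in the left-out libraries 502 of them (40.6%) again had a share at least 2 times higher in all lines, beside 14.4% of the genes eligible in that choice. Without replicate 2 the rule chose 1092 genes, of which 671 (61.4%, eligible 21.3%) did so, and without replicate 3 it chose 980, of which 617 (63.0%, eligible 20.9%) did. Eligible genes with a high control share have no room to double it, and the rule leaves them out. Part of the gap between chosen and eligible genes is therefore set by the choice. With CPSF1 sh1 as the only knockdown 908 members (67.7%) met the rule, with CPSF1 sh2 1258 (93.8%) and with each in turn 858 (64.0%). Whichever single library was left out, 722 members (53.8%) met it.

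Of the 8 members with the highest mean log2 ratio among those with at least 10 control reads downstream in each line, 4 belong to the translation machinery (EEF1A1, RPL37, RPL15 and RPS23) and 4 do not (HSP90B1, AK4, HMGB2 and HNRNPDL). EEF1A1, which delivers aminoacyl-tRNA to the ribosome, had the highest mean log2 ratio over the lines, 5.20. Its share in LNCaP was 0.126, 0.0688 and 0.0355% with CTRL sh, 2.44, 2.20 and 2.85% with CPSF1 sh1 and 3.32, 4.33 and 4.45% with CPSF1 sh2. In LNCaP95 the controls had 0.122, 0.0762 and 0.111%, CPSF1 sh1 2.47, 2.98 and 3.58% and CPSF1 sh2 6.23, 4.72 and 4.28%. In 22Rv1 the controls had 0.150, 0.0959 and 0.0348%, CPSF1 sh1 2.14, 1.77 and 1.75% and CPSF1 sh2 2.65, 2.86 and 2.64%. In each line every knockdown library lay more than 10 times above every control, and every CPSF1 sh2 library above every CPSF1 sh1 library. Pooled, 45 downstream reads beside 62337 3′ UTR reads in LNCaP controls stood against 3471 beside 107139 in the knockdowns. Its 3′ UTR reads had log2 changes of -0.04, -0.12 and -0.52 over the lines in the same order, and its 10 kb reads 5.43, 5.07 and 4.55. EEF1A1 downstream reads thus numbered 21 to 45 per line over 3 control libraries and 1262 to 3471 over 6 knockdown libraries.

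Ribosomal protein genes behaved alike. RPL37, of the large subunit, had shares of 0.0540 ± 0.0363, 0.0807 ± 0.0499 and 0.139 ± 0.0921% in the controls of LNCaP, LNCaP95 and 22Rv1 (SD, n = 3) and 1.78 ± 0.458, 3.15 ± 0.665 and 2.91 ± 0.826% in the knockdowns (SD, n = 6). RPL15 rose from 0.0552 ± 0.0216, 0.0688 ± 0.0290 and 0.0644 ± 0.0159% to 0.980 ± 0.207, 1.86 ± 0.562 and 0.963 ± 0.334%. RPS23, of the small subunit, went from 0.0673 ± 0.00370, 0.0776 ± 0.0851 and 0.156 ± 0.0686% to 1.18 ± 0.301, 2.67 ± 0.960 and 1.12 ± 0.352%. None of these 3 had a control library above a knockdown library in any line, and their 3′ UTR log2 changes lay between -0.47 and -0.09. Of 47 eligible cytosolic ribosomal protein genes, 36 were members (76.6%, all eligible genes 21.6%). The edgeR fit called the 10 kb region higher in 31 of the 47 in LNCaP, 26 in LNCaP95 and 22 in 22Rv1 (of all eligible genes 17.0, 30.8 and 13.2%), and the 3′ UTR lower in 13, 18 and 3 (of all eligible genes tested 9.04, 16.6 and 0.847%). It called the 10 kb region lower in 0, 2 and 1 (4.92, 9.53 and 3.84%) and the 3′ UTR higher in 1, 1 and 0 (8.44, 14.3 and 0.716%). Reads of ribosomal protein genes and EEF1A1 can be shared with near-identical processed pseudogenes elsewhere in the genome, so their counts are uncertain. RPL15 has an exon of its own in the 10 kb region in a newer annotation, and RPS23 a gene on the same strand there.

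Other families differed in how often their genes were members. They were counted by symbol. Proteasome genes were members in 10 of 19 eligible cases (52.6%), EIF translation initiation factors in 14 of 32 (43.8%) and SRSF, HNRNP and SF3 splicing factors in 10 of 25 (40%). Respiratory chain genes followed with 17 of 51 (33.3%), mitochondrial ribosomal proteins with 12 of 45 (26.7%) and RNF, TRIM, USP and UBE genes with 27 of 105 (25.7%). TMEM genes (17 of 80, 21.2%) and solute carriers (22 of 108, 20.4%) were near the figure for all eligible genes. Zinc finger ZNF genes, with 33 of 241 (13.7%), and histone genes, with 1 of 20 (5%, HIST1H2AC), were the least frequent. Membership also rose with the read level of a gene, and how far this accounts for the family figures was not tested.

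**Figure D3:**
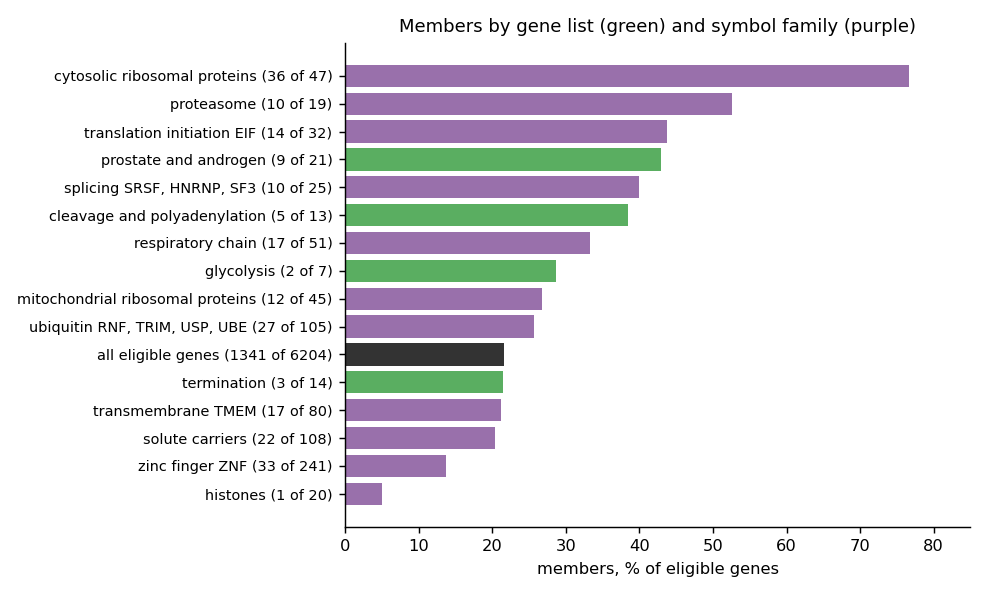
Percentage of eligible genes that were members (x axis) in 4 gene lists (green) and 11 families by symbol (purple), with the numbers beside each name and all eligible genes in black (1341 of 6204). Cytosolic ribosomal proteins stand at 76.6% and histones at 5%.

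Beyond translation, the members with the largest mean ratios among those with at least 10 control reads downstream in each line included the following genes. HSP90B1, a chaperone of the endoplasmic reticulum, had control shares of 0.319, 0.0530 and 0.184% for LNCaP, 0.0178, 0.0980 and 0.184% for LNCaP95 and 0, 0.0380 and 0.0401% for 22Rv1. Its knockdown shares ran from 1.45 to 3.13%, from 2.61 to 5.58% and from 1.08 to 1.99%, above every control of the line. AK4, a mitochondrial adenylate kinase, went from 0.587 ± 0.556 to 8.77 ± 4.31% in LNCaP, from 0.243 ± 0.136 to 16.3 ± 6.19% in LNCaP95 and from 1.25 ± 1.15 to 10.4 ± 2.29% in 22Rv1 (SD, n = 3 and 6). HNRNPDL, an RNA-binding protein of the hnRNP family, reached 25.1 ± 10.8, 33.1 ± 11.6 and 13.4 ± 4.33% from 2.41 ± 1.97, 2.01 ± 2.03 and 1.67 ± 0.733%. In neither gene did knockdown and control libraries overlap, and in LNCaP95 the CPSF1 sh1 replicate 2 was the highest of its group for both. HMGB2, a chromatin protein of dividing cells, combined a rise from 0.382 ± 0.278, 0.122 ± 0.0725 and 0.921 ± 0.197% to 4.08 ± 1.5, 4.51 ± 0.765 and 4.63 ± 0.791% with 3′ UTR log2 changes of -0.67, -1.01 and -1.04. Its 10 kb region holds a newer exon of the gene itself and another gene on the same strand.

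Some of the 8 members with the most downstream reads had more pooled knockdown reads there than in the 3′ UTR. These were NSUN2 and GRHL2 in LNCaP95 and CCNG1 in 22Rv1. NSUN2, an RNA methyltransferase, had control shares of 2.55, 2.32 and 3.55% in LNCaP and 8.17, 2.53 and 6.96% in LNCaP95. With CPSF1 sh1 it had 27.2, 19.6 and 30.7% and 43.8, 84.5 and 44.1%, and with CPSF1 sh2 29.6, 47.1 and 38.1% and 66.2, 56.5 and 54.9%. In LNCaP95 the pooled knockdown libraries held 4174 downstream reads against 2322 in its 3′ UTR, a share of 64.3%, while the pooled share was 31.0% in LNCaP and 30.4% in 22Rv1. CCNG1, a cyclin induced by p53, had control shares of 12.8 ± 0.386, 13.5 ± 1.30 and 27.4 ± 1.92% and reached 43.9 ± 7.37, 48.2 ± 10.6 and 69.5 ± 4.63%. GTF3C6, a subunit of the RNA polymerase III factor TFIIIC, rose from 19.6 ± 5.07, 9.54 ± 4.71 and 9.36 ± 3.37% to 47.5 ± 12.1, 41.6 ± 10.9 and 34.2 ± 4.93%. In NSUN2, CCNG1 and GTF3C6 every knockdown library exceeded every control of its line.

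Of the list of 24 cleavage and polyadenylation genes, 13 were eligible and 5 were members (38.5%, all eligible genes 21.6%), namely CPSF1, CSTF2T, CSTF3, PAPOLA and PABPC1. The edgeR fit called the 10 kb region higher in 3 of the 13 in LNCaP, 6 in LNCaP95 and 3 in 22Rv1 (all eligible genes 17.0, 30.8 and 13.2%), and lower in 0 (4.92, 9.53 and 3.84%). CSTF3, a scaffold of cleavage stimulation factor, had 4, 2 and 2 pooled control reads downstream in LNCaP, LNCaP95 and 22Rv1 and 188, 270 and 332 in the knockdowns. Its control shares were 1.21 ± 1.06, 0.450 ± 0.397 and 0.501 ± 0.868%, and its knockdown shares were 17.0 ± 4.97, 24.3 ± 10.1 and 22.4 ± 5.74%, with no overlap, although another gene on the same strand, the pseudogene PIGCP1, lies in its 10 kb region. CSTF2T, a paralog of the RNA-binding subunit of that factor, rose from 3.10 ± 3.06, 15.1 ± 10.6 and 8.26 ± 7.14% to 23.7 ± 8.96, 28.4 ± 9.14 and 26.9 ± 6.57%. In LNCaP95 its control replicate 3, at 27.1%, lay above 3 of the 6 knockdown libraries.

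CPSF1 itself was a member. Its share rose from 0.680 ± 0.457, 0.977 ± 0.362 and 2.52 ± 0.681% to 4.08 ± 2.57, 3.69 ± 1.73 and 7.65 ± 1.91%, with overlap in LNCaP95, where CPSF1 sh2 replicate 1 had 1.11% and the highest control 1.25%. Because its 3′ UTR reads are lowered by the shRNAs (log2 changes of -1.07, -1.03 and -0.68), part of this rise of the share comes from the smaller 3′ UTR count. Its 10 kb reads still had log2 changes of 1.61, 0.91 and 0.93. PAPOLA, the main poly(A) polymerase, stood near the limit of the rule with ratios of 2.91, 2.59 and 2.24, and its control and knockdown libraries overlapped in every line. PABPC1, the cytoplasmic poly(A)-binding protein, had the smallest shares of the named members. Its 41, 108 and 141 pooled knockdown reads downstream stood beside 113536, 50379 and 75941 in the 3′ UTR, and in LNCaP its libraries overlapped.

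Among 21 listed genes of transcription termination and Integrator, 14 were eligible and 3 were members (21.4%), close to the share among all eligible genes. The 10 kb region was called higher in 4, 7 and 4 of the 14 (all eligible genes 17.0, 30.8 and 13.2%) and lower in 0, 2 and 2 (4.92, 9.53 and 3.84%). DHX9, an RNA helicase, had control shares of 4.85, 0 and 1.91% for LNCaP, 3.77, 2.07 and 2.27% for LNCaP95 and 0, 0.543 and 0.255% for 22Rv1. With CPSF1 sh1 it had 7.69, 5.14 and 10.7%, 16.2, 34.0 and 16.5%, and 9.34, 7.80 and 7.87%, and with CPSF1 sh2 10.6, 28.4 and 21.5%, 40.4, 31.9 and 29.5%, and 9.08, 16.6 and 14.2%. Knockdown libraries lay above all controls in each line, by the smallest margin in LNCaP. INTS6, a subunit of Integrator, rose from 16.8 ± 2.59, 5.48 ± 2.25 and 7.36 ± 1.89% to 45.5 ± 8.45, 44.4 ± 4.98 and 36.7 ± 8.33%, and its 3′ UTR reads had log2 changes of -0.42, -1.41 and -0.25. RPRD1B, which binds the tail of RNA polymerase II, rose from 1.98 ± 2.02, 0.823 ± 0.734 and 3.52 ± 2.38% to 15.3 ± 4.92, 22.8 ± 8.40 and 18.5 ± 5.66%. INTS6 and RPRD1B showed no overlap either, and the INTS6 region holds the microRNA gene MIR5693 on the same strand.

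Of 17 glycolysis genes, a pathway the study was concerned with, 7 were eligible and HK1 and LDHB were members (28.6%, all eligible genes 21.6%). The 10 kb region was called higher in 3, 3 and 2 of the 7 (all eligible genes 17.0, 30.8 and 13.2%) and lower in 0, 0 and 1 (4.92, 9.53 and 3.84%). The 3′ UTR was called lower in 2, 4 and 1 of the 7 (9.04, 16.6 and 0.847%) and higher in 1, 0 and 0 (8.44, 14.3 and 0.716%). HK1, a hexokinase that commits glucose to the pathway, had 3.76, 2.06 and 0.791% in LNCaP controls, 0.206, 0.777 and 0.594% in LNCaP95 controls and 3.18, 5.02 and 1.80% in 22Rv1 controls. With CPSF1 sh1 its shares were 5.32, 10.6 and 7.31%, 6.58, 24.2 and 8.96%, and 18.9, 11.9 and 17.4%, and with CPSF1 sh2 13.9, 16.5 and 14.3%, 25.1, 21.1 and 21.9%, and 22.9, 20.4 and 19.0%. All knockdown libraries exceeded the controls of their line, and the 3′ UTR reads of HK1 had log2 changes of 0.64, -0.28 and -0.03. LDHB, a lactate dehydrogenase subunit, rose from 0.113 ± 0.150, 0.185 ± 0.213 and 0.244 ± 0.106% to 1.43 ± 0.670, 3.84 ± 2.01 and 2.22 ± 0.518%, also without overlap, with 3′ UTR log2 changes of 0.03, 0.18 and -0.14 and an unnamed gene on the same strand in its region.

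Prostate and androgen-related genes were members in 9 of 21 eligible cases of a list of 34 (42.9%, all eligible genes 21.6%). The 10 kb region was called higher in 8, 10 and 7 of the 21 (all eligible genes 17.0, 30.8 and 13.2%) and lower in 4, 1 and 1 (4.92, 9.53 and 3.84%). KLK2, a kallikrein protease secreted by luminal prostate cells, went from 0.313 ± 0.425 to 5.94 ± 1.80% in LNCaP, from 0.800 ± 0.561% to between 13.8 and 27.5% in LNCaP95 and from 0.541 ± 0.740 to 5.40 ± 2.03% in 22Rv1. PMEPA1, an androgen-induced inhibitor of TGF-beta signalling, went from 0.317 ± 0.307, 0.236 ± 0.0214 and 0.114 ± 0.108% to 4.84 ± 2.34, 7.28 ± 2.10 and 6.14 ± 1.70%. Both were free of overlap in all lines.

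For several prostate genes the share rose with little gain of downstream reads in some line. UGT2B15, which glucuronidates androgens, had a share of 12.1 ± 0.479% in LNCaP controls and 32.2 to 38.4% in the knockdowns, but its 10 kb reads had a log2 change of 0.02 there and its 3′ UTR reads one of -1.90. In LNCaP95 the 10 kb change was 3.02 and the 3′ UTR change 0.80, and in 22Rv1 1.93 and 0.06. Its neighbour UGT2B17 showed the same contrast, with 0.32 and -2.12 in LNCaP and 2.75 and 0.02 in LNCaP95. The pair is so similar that reads may be assigned to either copy, and in 22Rv1 UGT2B17 had only 4 control reads downstream and 12 in the 3′ UTR. TMPRSS2, a serine protease induced by androgen, had 10 kb changes of 1.59, 0.44 and 0.32 with 3′ UTR changes of -0.29, -1.66 and -1.23, and its libraries overlapped in 22Rv1. ABCC4, a drug efflux pump, overlapped in LNCaP and 22Rv1 and rose without overlap from 0.739 ± 0.483 to 18.2 ± 6.82% in LNCaP95. KRT18, a luminal keratin, had shares below 1% throughout, with overlap in LNCaP and 22Rv1.

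**Figure D4:**
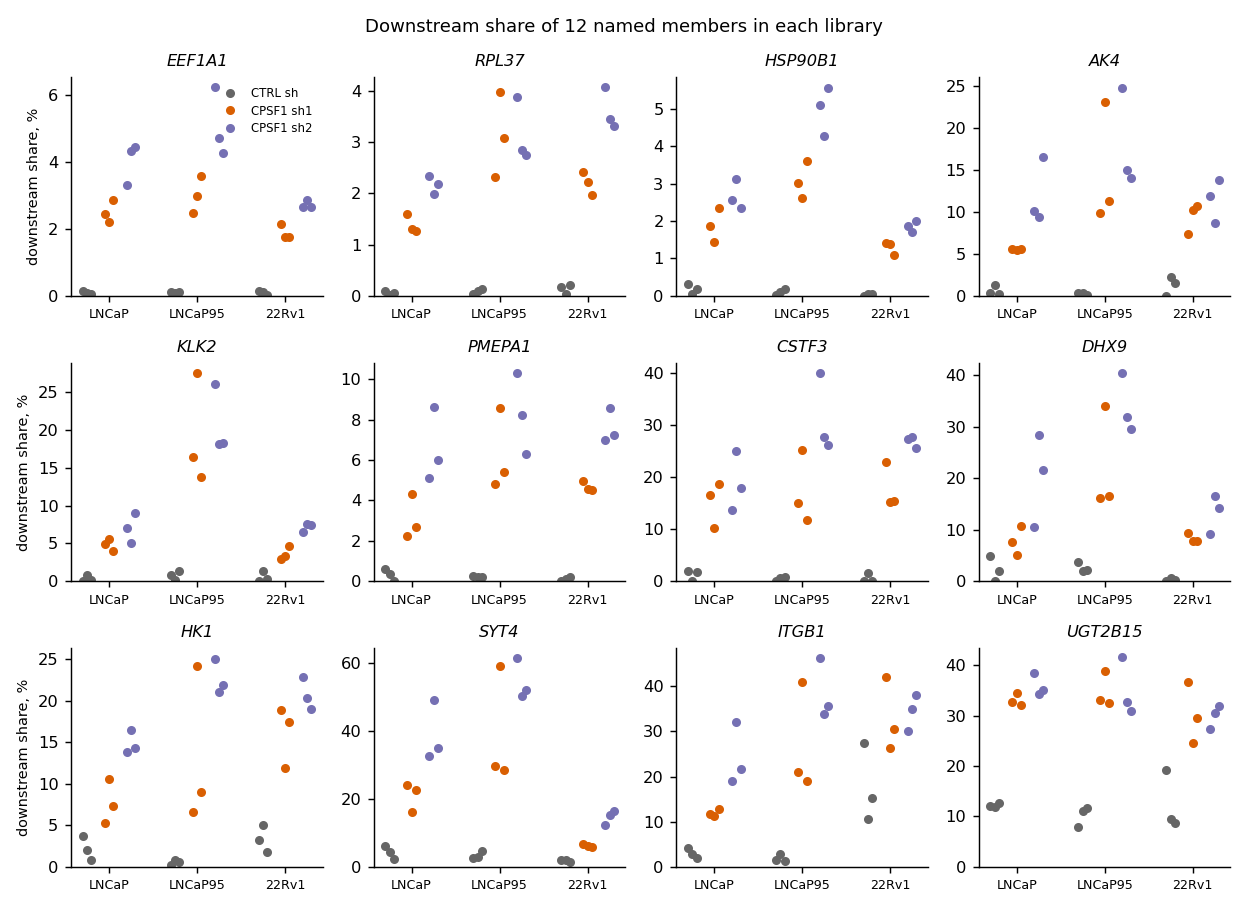
Downstream share (y axis, percent, scale differs between panels) of 12 named members in each of 27 libraries by line (x axis) and shRNA (colour). Knockdown points lie above all control points of their line in every panel except ITGB1 in 22Rv1, where CPSF1 sh1 replicate 2 (26.3%) falls below control replicate 1 (27.5%). The 12 are a selection that leaves out most named members with overlap. Such separation in all 3 lines held for 38.0% of all members and 10.5% of all eligible genes.

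Over the 38 members picked by the rule for naming genes, knockdown and control libraries did not overlap in any line for 28 (73.7%, all members 38.0%), and these genes were largely picked for high ratios or many reads, while for PAPOLA and KANSL2 they overlapped in all 3 lines. Members close to the limit of the rule could have fallen on either side. There were 220 members with a lowest ratio under 2.2 and 302 eligible genes outside the set with a lowest ratio of 1.8 or more. Just inside stood LOXL2, CASC1 and KANSL2, and just outside ETF1, C3orf17 and TMEM11, all with a lowest ratio that rounds to 2.00. LOXL2 qualified in LNCaP on 0 downstream reads and 1 3′ UTR read in the controls against 42 and 42 in the knockdowns. ETF1, with 0 control reads downstream in LNCaP95 and 129 in the knockdowns, missed because in LNCaP its share went from 0.184 to 0.368%.

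The 2 shRNAs were compared within the knockdown libraries. For LNCaP the median log2 share ratio of the members was 1.61 with CPSF1 sh1 and 2.15 with CPSF1 sh2, for LNCaP95 2.46 and 2.91, and for 22Rv1 1.74 and 2.00. The share was higher with CPSF1 sh2 for 1138 members in LNCaP (84.9%, all eligible genes 71.6%), 1164 in LNCaP95 (86.8%, eligible 74.1%) and 1013 in 22Rv1 (75.5%, eligible 59.0%). Tested per gene with edgeR as 10 kb reads relative to 3′ UTR reads, however, 0 of 1335 members differed in LNCaP and 0 of 1338 in LNCaP95 (background 0% of all tested genes in both). At an unadjusted p under 0.05 there were 148 and 79 members, and DESeq2 also called 0 in both lines. In 22Rv1, 9 of 1335 members differed (0.674%, background 0.107%), all with the higher ratio under CPSF1 sh2, while DESeq2 called 0. They included RPL3, RPL5, RPL13, RPS12, RPS20, H1FX and SYT4. RPL5 had 0.481, 0.387 and 0.499% with CPSF1 sh1 and 1.22, 1.39 and 0.934% with CPSF1 sh2 in 22Rv1, a log2 difference of 1.32 (edgeR adjusted p = 0.0173). SYT4, a synaptotagmin of secretory vesicles, had 6.61, 6.20 and 5.68% and 12.4, 15.1 and 16.3%, a log2 difference of 1.33 (edgeR adjusted p = 0.0173). The shRNA groups did not overlap in either gene. The 9 calls became 0 without CPSF1 sh2 replicate 1 or 2, and 1 without replicate 3 of either shRNA, and 4 without CPSF1 sh1 replicate 1. The 2 shRNAs differ in sequence, and whether their difference in the downstream share goes with the depth of CPSF1 knockdown was not tested.

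Differences between lines were first examined in the control cells, where 10 kb reads relative to 3′ UTR reads were compared with edgeR. The pooled control share is the denominator of the ratio in the rule, so the choice favoured low control shares in every line, which shapes how often members could differ here. LNCaP95 and LNCaP differed in 17 of 1241 tested members (1.37%, background 2.91%), 10 higher and 7 lower in LNCaP95. 22Rv1 differed from LNCaP in 69 of 1245 (5.54%, background 8.87%) and from LNCaP95 in 81 of 1259 (6.43%, background 10.9%). Of all eligible genes 3.09, 9.29 and 11.2% were called in the 3 comparisons, and nothing is read from the members' shares beside them. With 1 control library left out these counts were as low as 6 for LNCaP95 against LNCaP (without LNCaP replicate 3 or LNCaP95 replicate 2), and 22 and 38 for 22Rv1 against LNCaP and LNCaP95 (both without 22Rv1 replicate 3), and the highest was 73 for 22Rv1 against LNCaP (without 22Rv1 replicate 1). The balance of directions depended on the scaling. With summed library sizes 2 were higher and 8 lower in LNCaP95 against LNCaP, with DESeq2 4 and 5, and the 52 higher and 29 lower of 22Rv1 against LNCaP95 became 84 and 10. ITGB1, the integrin beta-1 chain, had a control share of 27.5, 10.7 and 15.3% in 22Rv1 but 4.06, 2.86 and 2.05% in LNCaP and 1.49, 2.81 and 1.24% in LNCaP95 (log2 differences of 2.70 and 2.94, edgeR adjusted p = 2.1e-05 and 8.0e-05).

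Whether the downstream gain itself differed between lines was tested as a line-by-knockdown term in the 10 kb table over the 27 libraries. The knockdown and control reads of each line also entered the rule, which set the same minimum for all lines, and the 3 terms share libraries. Of 1341 members, 37 differed between LNCaP95 and LNCaP (2.76%, background 2.45%), 15 between 22Rv1 and LNCaP (1.12%, background 0.948%) and 79 between 22Rv1 and LNCaP95 (5.89%, background 4.13%). Over the eligible genes 3.85, 1.42 and 6.59% were called, so the members' shares lay above the one background and below the other. Of the 37, 28 rose more in LNCaP95, and of the 79, 71 rose less in 22Rv1. Over all tested regions, 210 had a higher and 152 a lower change in LNCaP95 than in LNCaP (eligible genes 152 and 87). For 22Rv1 against LNCaP95 these were 257 and 353 (eligible genes 118 and 291), so genes in general leaned the same way. Among the members, the balance for LNCaP95 and LNCaP depended on the processing. With summed library sizes 58 rose more and 3 less, but 11 more and 16 less when every library had to exceed 2 CPM (counts per 1000000 of library size). Of the 15, 4 rose more in 22Rv1 than in LNCaP, among them SOX4, UBE2E3 and UGT2B15, and 11 rose less. Over all tested regions 67 had a higher and 73 a lower change in 22Rv1 (eligible genes 35 and 53). The 15 became 7 without LNCaP control replicate 2 and 6 without replicate 3 of the LNCaP or the 22Rv1 controls, and the 79 became 52 without LNCaP95 control replicate 1 and 49 without 22Rv1 control replicate 3.

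SYT4 gained more in LNCaP95 than in either other line. Its share there was 2.55, 2.85 and 4.66% with CTRL sh, 29.7, 59.1 and 28.4% with CPSF1 sh1 and 61.2, 50.1 and 51.9% with CPSF1 sh2, and its 3′ UTR reads had a log2 change of 2.17, so both kinds of end rose. In LNCaP the share went from 4.26 ± 1.86 to 29.9 ± 11.6% and in 22Rv1 from 1.76 ± 0.414 to 10.4 ± 4.81%. The log2 10 kb change of SYT4 was larger in LNCaP95 than in LNCaP by 3.48 (edgeR adjusted p = 3.6e-08), and 22Rv1 against LNCaP95 gave -3.57 (edgeR adjusted p = 7.2e-08). GRHL2, an epithelial transcription factor, had a like order, from 5.82 ± 0.660 to 51.7 ± 13.8%, beside 7.65 ± 1.17 to 27.2 ± 6.46% in LNCaP and 8.97 ± 2.89 to 20.3 ± 4.38% in 22Rv1. The terms were 1.87 for LNCaP95 against LNCaP and -2.52 for 22Rv1 against LNCaP95 (edgeR adjusted p = 5.5e-04 and 4.1e-06), and for both genes they passed the threshold in all 33 alternatives.

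ITGB1 gained less in 22Rv1, where its control share was highest and its libraries overlapped, with a mean of 33.6 ± 5.78% after knockdown. The term was -2.91 against LNCaP95 and -1.63 against LNCaP (edgeR adjusted p = 5.3e-09 and 0.00611), the latter lost without control replicate 3 of LNCaP or of 22Rv1. CNDP2, a peptidase, likewise started higher in 22Rv1, at 9.09, 12.7 and 10%, than in LNCaP, at 1.97, 0.885 and 2.26%, and its term of 22Rv1 against LNCaP was -2.77 (edgeR adjusted p = 2.3e-04). A newer exon of CNDP2 lies in its 10 kb region. In both genes the line with the higher control share was the line with the smaller gain. The control 10 kb reads enter both values, and both genes were picked by this term, so nothing is read from the pattern. UGT2B15 gained less in LNCaP, with terms of 2.57 for LNCaP95 and 1.88 for 22Rv1 (edgeR adjusted p = 1.8e-10 and 3.3e-05).

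Across the members, the log2 share ratios of 2 lines had Spearman correlations of 0.40 for LNCaP and LNCaP95, 0.31 for LNCaP and 22Rv1 and 0.32 for LNCaP95 and 22Rv1 (n = 1341 genes). Over all 6204 eligible genes the values were 0.63, 0.55 and 0.60. The points are genes rather than independent samples, each line has its own controls, and the rule cuts off the lower part of the range in the members.

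Features that are not themselves part of the rule were described next, for 1338 members and 4860 other eligible genes. They are not independent of the choice. The length of the counted 3′ UTR and other same-strand genes or exons in the region can bear on the reads that form the share. The contrasts are therefore a description. Members had longer counted 3′ UTRs (median 3126 against 2495.5 bases) and a slightly lower GC content in the 10 kb region (43.2 against 44.6%). The next protein-coding gene on the same strand was further away (median 94254 against 74604.5 bases). The region held no same-strand exon, gene or other 10 kb region of the newer annotation in 949 members (70.9%) and in 2749 of the others (56.6%). A newer exon of the same gene was present in 11.8 against 17.8%, a span of another gene on the same strand in 18.0 against 28.2% and a long noncoding RNA on the same strand in 9.19 against 15.3%. Over all full-length regions these figures were closer to those of the members, with a median of 94254 bases to the next gene, 65.8% without any such feature, 11.9% with a newer exon of the gene, 21.0% with another gene and 11.3% with a long noncoding RNA. The contrast was thus one with the other eligible genes. In contrast, the median region held 9 AATAAA in either set, the first of them lay a median of 1427 and 1456 bases from the gene end, and stretches of 20 bases with more than 12 A, where priming inside the transcript could place reads, numbered a median of 20 and 19. Over quintiles of gene length the figure was flat, with 20.8 to 22.8% members in each.

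The strongest relation was with the level of the gene, which is part of the share and thus of the rule. Ranked by control 3′ UTR RPM and cut into quintiles, 1.61, 14.2, 20.7, 30.6 and 40.8% of the eligible genes were members from the lowest to the highest quintile. The median control share in LNCaP fell over the same quintiles from 83.9 through 15.8, 6.64 and 3.55 to 1.01%. A gene at the median of the lowest quintile thus could not meet a ratio of 2, which does not hold for the median of the other quintiles. The median log2 share ratio in LNCaP rose over the quintiles as well, from 0.02 through 0.50, 0.70 and 0.92 to 1.15. Why membership rose with the level was not tested. Some features, not including 3′ UTR length, were therefore also read within quintiles. Genes with AATAAA in the last 50 bases were members in 2.07, 15.6, 22.4, 32.9 and 40.8%, and genes without it in 1.21, 12.4, 18.4, 26.8 and 40.8%, so the figures met in the highest quintile. Genes with another gene on the same strand in the region were members in 0.512, 8.85, 17.4, 20.7 and 31.5%, against 2.12, 16.0, 21.9, 33.5 and 43.9% without one, a lower figure in every quintile. By chromosome, members were 9.62% of 416 eligible genes on chromosome 19 and 11.5% of 148 on chromosome 22, but 31.1% of 106 on chromosome 13 and 28.5% of 291 on chromosome 5.

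**Figure D5:**
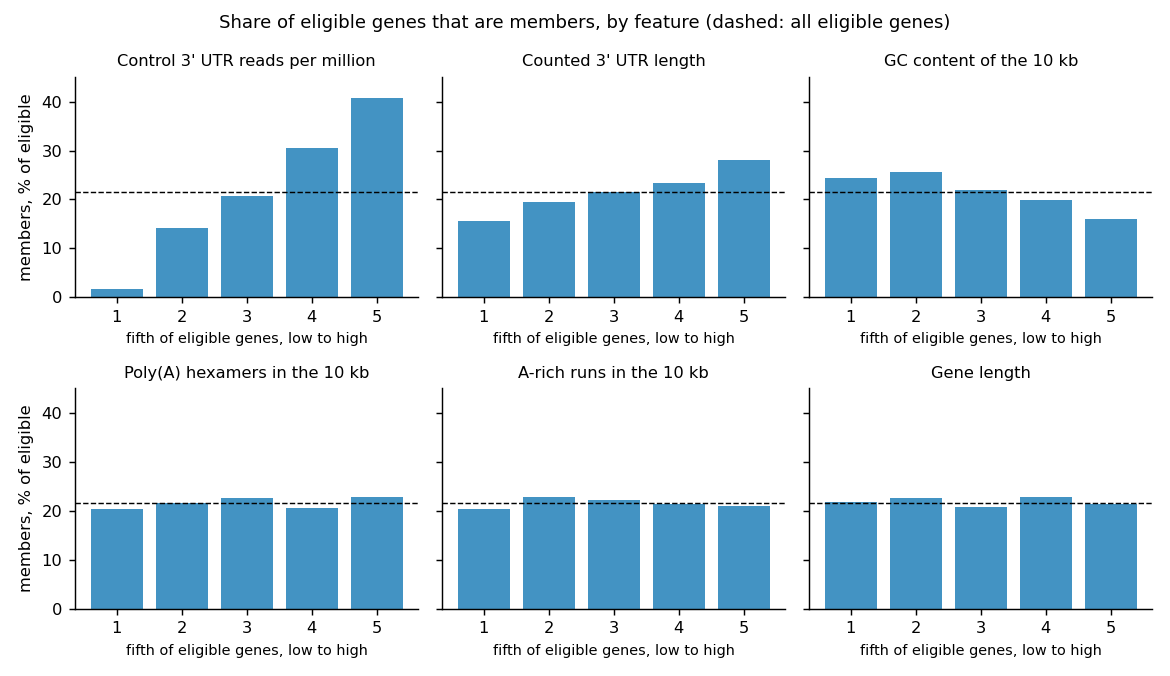
Percentage of eligible genes that were members (y axis) in quintiles of the eligible genes from low to high (x axis) for 6 features, with the figure for all eligible genes dashed. It rises from 1.61 to 40.8% with control 3′ UTR reads and from 15.6 to 28.1% with 3′ UTR length, falls to 16.0% in the quintile of highest GC, and stays between 20.3 and 22.9% for AATAAA counts, A-rich runs and gene length.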

How the data were processed

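PAC-seq libraries were grouped by sample title, and all table columns were matched to them, leaving 0. Raw counts of reads per gene were deposited by the authors for 3′ UTRs, introns, CDS and 10 kb regions, with replicates separate and no normalization. In their processing, poly(A) stretches were trimmed with DPAC, reads were mapped to hg19 (GRCh37) with HISAT2 2.1.0 and counted on the gene strand by the 3′-most base with featureCounts of Subread 2.0.3, per the submitters' processing notes and methods. Regions came from Ensembl protein-coding genes, with 3′ UTRs extended by 300 bases and the 10 kb region starting there, same-strand exons and UTRs removed. Reads primed inside A-rich stretches may be among such counts, which was not tested.

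The members and gene lists were chosen with earlier results of these data known. Counts were tested by edgeR 4.0.16 with its quasi-likelihood test (R 4.3.3, limma 3.58.1), with TMM factors, a mean above 2 CPM (counts per 1000000 of the library size that edgeR uses) and Benjamini-Hochberg adjustment over all tested genes at 0.05. Knockdown was compared with control within each line on 3 and 6 libraries. 10 kb reads relative to 3′ UTR reads were tested in a model with library and region terms, and line differences as line-by-knockdown terms over 27 libraries. The models were tested on simulated data. Alternatives were other scalings and filters, DESeq2 1.42.0, a replicate block, other limits of the rule and leaving out each library. RPM refers to all counted reads of the 4 tables. Features were read from the GRCh37 genome and a newer Gencode annotation in which 93.3% of member symbols were found.

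The named genes were the 8 members with the highest mean log2 ratio among those with at least 10 control reads in each line, the 8 with the most knockdown reads downstream, members of the 4 lists, CPSF1, the 3 genes on either side of the limit, and the 2 with the smallest adjusted p under 0.05 per shRNA or line-by-knockdown comparison. Others named were chosen after their values were seen. Some genes that the rule picked are not reported here.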

Additional observations from a re-analysis of the deposited data

Results flagged for a closer look

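Each result here concerns a gain of 10 kb reads upon CPSF1 knockdown that differed between lines by the edgeR line-by-knockdown term. Such differences were found for 37 members between LNCaP95 and LNCaP (2.76%, background 2.45%) and 15 between 22Rv1 and LNCaP (1.12%, background 0.948%). Between 22Rv1 and LNCaP95 there were 79 (5.89%, background 4.13%). Of all eligible genes 3.85, 1.42 and 6.59% were called, so the counts do not set the members apart. Against LNCaP, the log2 gain in LNCaP95 differed by 3.48 for SYT4, 2.57 for UGT2B15, 1.98 for UGT2B17, and 1.87 for GRHL2. The gain in 22Rv1 differed from that in LNCaP by 1.88 for UGT2B15, -1.63 for ITGB1 and -2.77 for CNDP2. Compared with LNCaP95, it differed by -1.5 for CNDP2, -1.68 for RPS23, -2.34 for HMGB2, -2.52 for GRHL2, -2.91 for ITGB1 and -3.57 for SYT4. The RPS23 term was lost in 12 of 33 alternatives, each without 1 library, with log2 differences of -1.86 to -1.21 (-1.21 without LNCaP95 CTRL sh replicate 1). That of CNDP2 against LNCaP95 was lost without LNCaP95 CTRL sh replicate 3 or 22Rv1 CTRL sh replicate 2 or 3. That of ITGB1 against LNCaP was lost without LNCaP CTRL sh replicate 3 or 22Rv1 CTRL sh replicate 3. UGT2B15 and UGT2B17 are near-identical neighbours, so their values are not independent. Groups of 3 libraries are too small for a check of single outlying libraries.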

How the results depend on the processing

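Limits: the ratios rest on few control reads in many members, and the number of members depended on the rule. It was 820 with 5 and 10 in place of 0.5 and 1 as added counts, 2250 at a ratio of 1.5, 569 at 3, and 1201 to 1404 with 1 library left out. With a replicate number left out of every group it was 1237, 1092 and 980, and the share again at least 2 times higher in the left-out libraries was 40.6, 61.4 and 63%. The named members' log2 ratios kept their direction in all 456 alternatives and moved by more than the spread in 54. Replicate numbers are shared only as numbers (median correlation of same-numbered libraries 0.007, 0.004 and 0.002 in the 3 lines, 12 of 27 libraries closest to their own number). With the replicate block, the 22Rv1 shRNA comparison gave 5 calls in place of 9, and no other count of member calls moved by over 1.5 times.

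Members called higher in the 10 kb table were 436, 519 and 284 in LNCaP, LNCaP95 and 22Rv1 when every library had to exceed 2 CPM, which tests fewer genes, and 959 in 22Rv1 with summed library sizes. For 22Rv1 3′ UTRs, 59 members were lower with summed sizes and 48 with DESeq2, which called 6 higher. The 22Rv1 shRNA comparison gave 4 calls with summed sizes, 23 without a filter, 20 with every library above 2 CPM and 0 with DESeq2. Control LNCaP95 against LNCaP gave 10 with summed sizes, 36 with every library above 2 CPM and 9 with DESeq2. Control 22Rv1 against LNCaP gave 36 with summed sizes, 42 without a filter and 15 with DESeq2, and against LNCaP95 47 with DESeq2. Line-by-knockdown terms gave 61 for LNCaP95 against LNCaP with summed sizes, 32 for 22Rv1 against LNCaP with DESeq2, and 125 (summed sizes) and 47 (every library above 2 CPM) for 22Rv1 against LNCaP95. With RLE factors, 3 of 20 members rose more in 22Rv1 than in LNCaP. The cause was not tested. The balance of directions turned for the LNCaP95 against LNCaP term, from 28 higher and 9 lower to 11 and 16 with every library above 2 CPM, and for control LNCaP95 against LNCaP, from 10 and 7 to 2 and 8 with summed sizes, 4 and 5 with DESeq2 and 3 and 4 without LNCaP CTRL sh replicate 2.

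With 1 library left out, 10 kb higher calls ranged over 508 to 670, 811 to 917 and 354 to 567 (lowest without 22Rv1 CTRL sh replicate 3), 3′ UTR lower calls over 103 to 194 (lowest without LNCaP CTRL sh replicate 1), 213 to 322 and 2 to 47 (without 22Rv1 CTRL sh replicates 3 and 1), and 3′ UTR higher calls over 60 to 169, 94 to 179 (lowest without LNCaP and LNCaP95 CTRL sh replicate 1) and 1 to 7. Counts also moved by over 1.5 times without LNCaP CTRL sh replicate 2 (73 higher 3′ UTRs) or 3 (63 higher, 108 lower). In 22Rv1 the lower 3′ UTR calls were 39 and 12 without CPSF1 sh1 replicate 1 and 3, 9, 7 and 5 without CPSF1 sh2 replicate 1, 2 and 3, and 9 without CTRL sh replicate 2. There the higher calls were 7 without CTRL sh replicate 1, 5 without CPSF1 sh1 replicate 1 and 1 without CTRL sh replicate 2 or 3, CPSF1 sh1 replicate 3 or CPSF1 sh2 replicate 2 or 3. The shRNA comparisons ranged over 0 to 0, 0 to 0 and 0 to 7, the control comparisons over 6 to 16 (LNCaP95 and LNCaP), 22 to 73 (22Rv1 and LNCaP) and 38 to 73 (22Rv1 and LNCaP95), and the line-by-knockdown terms over 25 to 50, 6 to 21 and 49 to 89. The lowest control and line-by-knockdown counts came without a control library. Control LNCaP95 against LNCaP gave 8, 7 and 6 without LNCaP replicate 1, 2 and 3 and 11 and 6 without LNCaP95 replicate 1 and 2, 22Rv1 against LNCaP gave 37, 32 and 31 without LNCaP replicate 1, 2 and 3 and 34 and 22 without 22Rv1 replicate 2 and 3, and 22Rv1 against LNCaP95 gave 51 without LNCaP95 replicate 1 and 40 and 38 without 22Rv1 replicate 2 and 3.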
